A study of Mus musculus with 10 samples.

Results

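Axon guidance ligands and receptors were examined in 10 RNA libraries from the ventral midbrain of naive mice, 5 of an astrocyte fraction and 5 of input RNA. The genes were the protein-coding rows whose symbols belong to the semaphorins (classes 3 to 7), plexins, neuropilins, ephrins, Eph receptors, Slits, Robos, netrins, netrin-Gs, Dcc, neogenin (Neo1), the Unc5 receptors and the repulsive guidance molecules. The symbol pattern found 73 of the 18464 genes of the table, of which 37 encode ligands and 35 receptors, and 1, Unc50, shares only the start of its name with the Unc5 receptors and was kept out of both groups. All 73 passed the filter on low counts. Every library came from mice of the strain Aldh1l1-NuTRAP, in which the Aldh1l1 promoter, active in brain mostly in astrocytes, sets which cells carry tagged ribosomes. The astrocyte fraction is labelled posfxn and astrocytes, from tissue taken up in TRAP buffer, used in translating ribosome affinity purification, and the input is labelled as cell types of the central nervous system. The dissected tissue is labelled SNpc/VTA, the dopaminergic nuclei of the ventral midbrain. All mice are described as naive, and the sources used here give neither age nor sex. The libraries carry the numbers 88, 92, 976, 981 and 982, each shared by 1 fraction and 1 input, and nothing states that these are separate animals, so the p-values cover only the variation among these samples, which may be technical.

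Guidance cues steer growing axons and migrating cells by attraction or repulsion, and many remain active in the adult brain at synapses and vessels. Semaphorins signal through plexins, with neuropilins as co-receptors for most secreted class 3 members. Ephrins are bound to the membrane and are read by Eph receptor tyrosine kinases, in which the ligand-bearing cell can signal as well. Slits repel through Robo receptors, netrins attract through Dcc and repel through Unc5 receptors, and repulsive guidance molecules act through neogenin. In adult tissue glia supply part of these cues, for example those of myelin and of scars.

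The libraries were checked first. The total of expected counts was 3845554 in the astrocyte fraction library 92, 24479136 to 26924406 in the other fraction libraries and 21812193 to 30878894 in the inputs. In fraction library 92 a level of 0.880 CPM, the count of a gene relative to the scaled size of its library, is 3 counts, the level that a count of 0 allows, and 7 of the 73 genes had 3 counts or fewer there. All 18 listed astrocyte markers were higher in the astrocyte fraction (median log2 fold change 3.05), and all of the listed markers of neurons (18), mature oligodendrocytes (14) and microglia (14) were lower, with medians of -2.27, -3.77 and -4.13. Neuronal markers stayed detectable in the fraction, where the 18 pan-neuronal markers summed to 2587 to 3261 CPM, against 11640 to 13720 CPM in the inputs, and none of them was at 0 in a fraction library. The libraries of numbers 976 and 982 also held choroid plexus transcripts, from the source of cerebrospinal fluid. The 7 ependymal and choroid plexus markers in the table summed to 12380 and 2632 CPM in fraction libraries 976 and 982 against 98.2 to 141 CPM in the other fraction libraries, and to 3258 and 713 CPM in inputs 976 and 982 against 24.2 to 44.1 CPM in the other inputs.

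Most guidance genes were lower in the astrocyte fraction, and a small set of ligands and receptors was higher. Of the 72 guidance genes, 16 were called higher, 48 lower and 8 were not called (edgeR quasi-likelihood test, Benjamini-Hochberg adjusted p under 0.05 over all 17672 genes tested). Across all genes tested, 70.6% were called, 33.1% higher and 37.5% lower, so the share of guidance genes called higher (22.2%) was below that background and the share called lower (66.7%) above it. The median log2 fold change, fraction minus input, was -1.29 over the guidance genes and -0.06 over all genes tested. Both ligands and receptors leaned the same way. Of 37 ligands, 9 were higher and 23 lower, 5 had no call, and the median was -1.08. Of 35 receptors, 7 were higher and 25 lower, 3 had no call, and the median was -1.74. At 2-fold or more, 11 of the 72 guidance genes were higher and 41 lower, where all genes tested gave 16.1% and 24.3%. The share higher at 2-fold was thus near that of all genes tested, and the share lower was above it. Fraction and input libraries did not overlap for 13 higher and 45 lower guidance genes, where 27.2% and 31.1% of all genes tested did so. The pan-neuronal and oligodendrocyte markers given above were lower in the same libraries, and their part in the lower levels was not tested. In such bulk samples, a smaller share of RNA from other cell types and a lower level on the tagged ribosomes of astrocytes cannot be told apart.

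**Figure D1:**
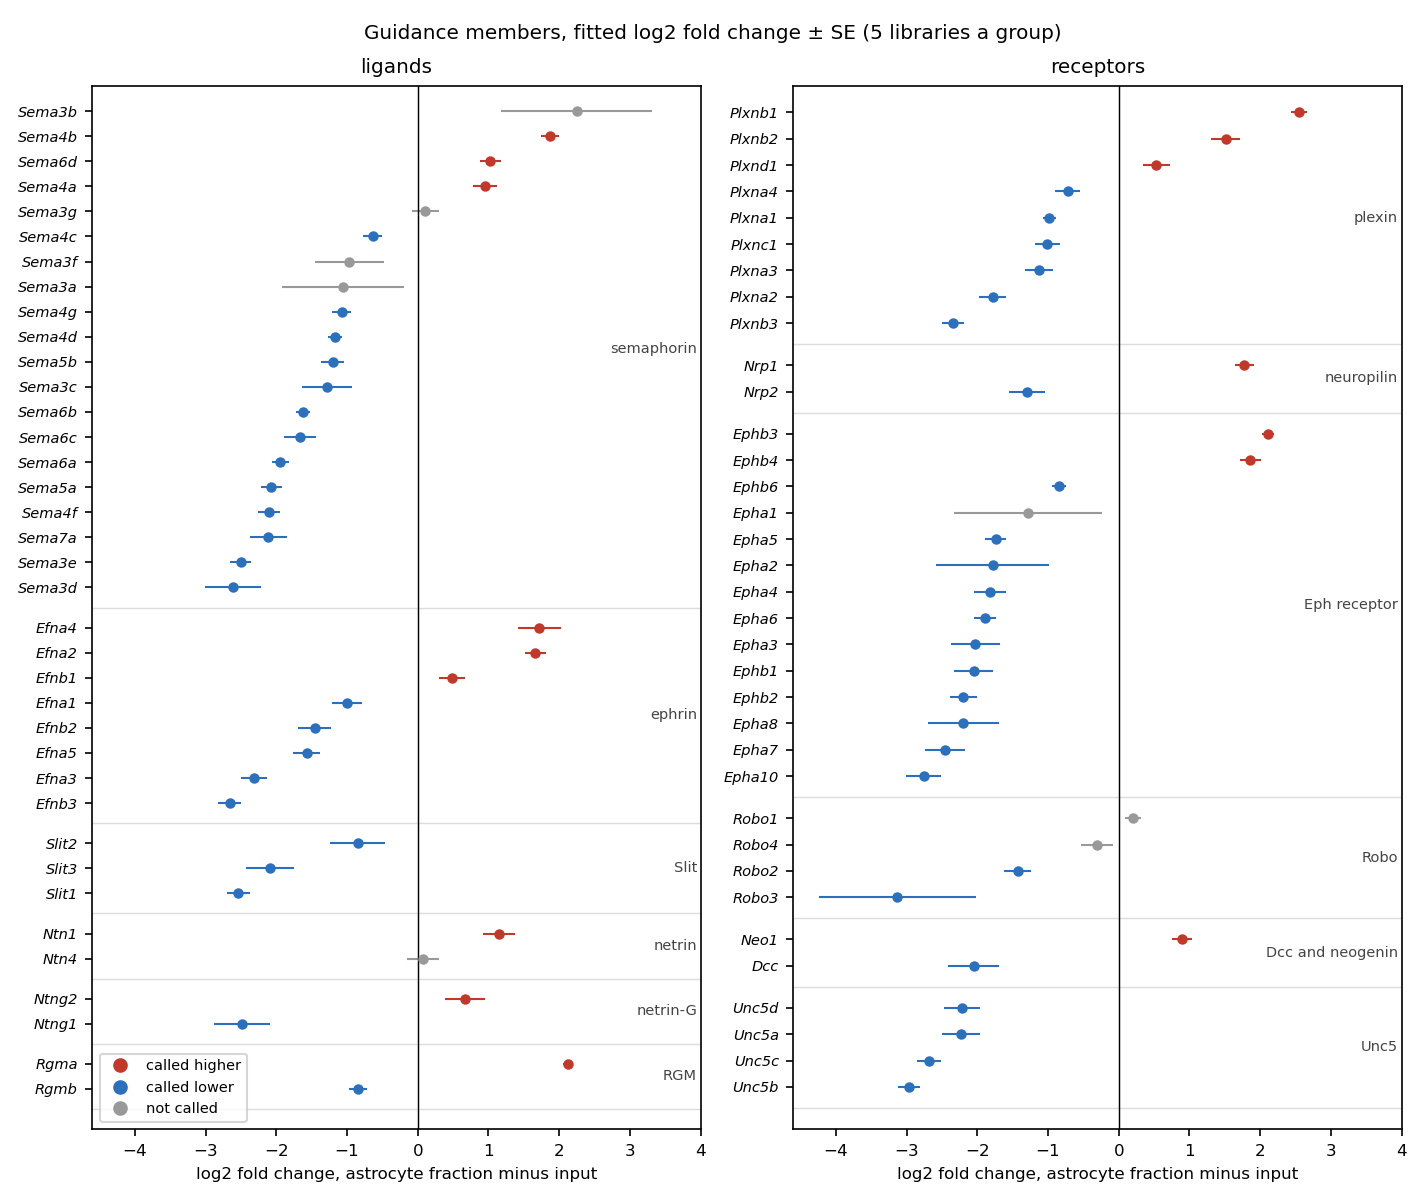
Fitted log2 fold change, astrocyte fraction minus input, of the 37 ligands (left) and 35 receptors (right), grouped by family. Points are coloured by the call, and bars are the SE of the difference of mean log2 CPM over 5 libraries a group. No Slit, Robo or Unc5 gene is called higher, and Plxnb1 (2.55) and Unc5b (-2.96) are the extremes among genes whose groups do not overlap.

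Both ends of the range of fold changes were held by receptors. Plxnb1 (ENSMUSG00000053646, mm10 chromosome 9, 109095389 to 109119917), which encodes the plexin-B1 receptor of the class 4 semaphorin Sema4d, had 828, 649, 608, 835 and 819 CPM in the fraction libraries 88, 92, 976, 981 and 982, against 145, 129, 124, 132 and 109 CPM in the inputs of the same numbers. Every fraction library lay above every input, and the means of 748 ± 110.0 CPM in the fraction and 128 ± 13.2 CPM in the input (SD, n = 5 each) gave a 5.85-fold higher level (log2 fold change 2.55 ± 0.12, adjusted p = 6.99e-10). Robo3 had the lowest log2 fold change (-3.13) but overlapped between fraction and input and is described with the variable genes. The lowest without overlap was Unc5b (ENSMUSG00000020099, mm10 chromosome 10, 60762593 to 60831581), which encodes a repulsive netrin receptor and had 8.21, 13.5, 7.67, 8.51 and 9.22 CPM in the fraction libraries, in the same order of numbers, against 81.01, 71.2, 67.9, 68.2 and 65.95 CPM in the inputs. No libraries overlapped, and the gene was 7.804-fold lower in the fraction (log2 fold change -2.96 ± 0.15, adjusted p = 6.99e-10). Among ligands with a listed promoter, the secreted class 3 semaphorin gene Sema3d had the lowest value (log2 fold change -2.61 ± 0.40, adjusted p = 5.52e-06). The sequence ahead of the start of these 3 genes is shown because they are the highest gene, the lowest without overlap and the lowest ligand with a listed promoter. It is the stretch from 250 to 51 bases before the RefSeq start (GRCm38.p6, the build named mm10 in the files), 5′ to 3′ on the strand of the gene, and with the GC box GGGCGG or its reverse CCGCCC in capitals.

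Plxnb1 (chr9:109095186-109095385, plus strand): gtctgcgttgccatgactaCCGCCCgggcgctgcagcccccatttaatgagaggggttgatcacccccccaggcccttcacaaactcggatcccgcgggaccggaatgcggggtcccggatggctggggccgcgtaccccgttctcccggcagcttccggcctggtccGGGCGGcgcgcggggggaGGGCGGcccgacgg
Unc5b (chr10:60831632-60831831, minus strand): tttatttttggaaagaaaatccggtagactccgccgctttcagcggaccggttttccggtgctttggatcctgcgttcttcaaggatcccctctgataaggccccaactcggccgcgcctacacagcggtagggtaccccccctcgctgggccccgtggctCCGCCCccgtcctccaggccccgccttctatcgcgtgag
Sema3d (chr5:12382916-12383115, plus strand): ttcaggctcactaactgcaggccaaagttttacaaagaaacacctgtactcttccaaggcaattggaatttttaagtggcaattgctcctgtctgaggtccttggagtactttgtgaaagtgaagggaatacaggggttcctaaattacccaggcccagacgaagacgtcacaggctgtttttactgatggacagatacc

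In these 200 bases the GC box was found 2 times forward and 1 time in reverse ahead of Plxnb1, 1 time in reverse ahead of Unc5b and 0 times ahead of Sema3d, with a G and C share of 72.5%, 62% and 45%. Sema4b, the ligand with the largest gain among called ligands with a listed promoter, has 2 windows and is not printed. The box was found 0 times in its first window and 1 time, in reverse, in its second. RefSeq lists such a window for 61 of the 72 guidance genes, 79 windows in all, since some genes have several starts. Of the windows of genes called higher, 10 of 20 held the box on either strand, and of those called lower 32 of 53, against 24.6% of all 32851 windows listed. The TATA box TATAAA was in 0 of the 20 windows of higher genes and 1 of the 53 of lower genes, against 9.1% of all windows, and the half-site of nuclear factor I, TTGGCA, in 2 of the 20 and 2 of the 53, against 10.2%, both strands counted. These counts describe letters in a window and not binding. The stretch searched ends 51 bases before the start, so the counts cannot tell whether a TATA box lies closer to it.

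The order of levels differed between fraction and input. Levels of different genes were compared as RPKM, here CPM per kilobase of annotated exon. In the astrocyte fraction the highest guidance genes were Rgma at 86.3 ± 9.15 RPKM and Plxnb1 at 77.96 ± 11.5 RPKM (SD, n = 5), whose ranges over libraries overlapped (73.8 to 96.4 and 63.4 to 87.0 RPKM). Plxnb2 at 28.7 ± 8.41, Sema6d at 25.3 ± 4.34 and Neo1 at 22.5 ± 3.22 RPKM followed, well below both and with overlapping ranges among themselves. In the input the order began with Efnb3 at 55.9 ± 6.93, Sema7a at 44.6 ± 11.3 and Sema6b at 43.8 ± 2.603 RPKM, whose ranges overlapped in neighbouring pairs except Sema6b with Efnb3, and Ntng1 at 27.3 ± 9.73 RPKM came next. The summed level of the 37 ligands was 259 ± 14.3 RPKM in the fraction and 337 ± 17.6 RPKM in the input, and that of the 35 receptors 204 ± 13.9 RPKM in the fraction and 192 ± 9.103 RPKM in the input. Rgma alone made up 33.2 ± 1.89% of the ligand sum in the fraction and 5.903 ± 0.409% in the input, and Plxnb1 38.1 ± 3.61% of the receptor sum in the fraction and 6.94 ± 0.685% in the input. The receptor sum ranged from 188 to 218 RPKM over fraction libraries and 185 to 208 RPKM over inputs, which overlap.

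**Figure D2:**
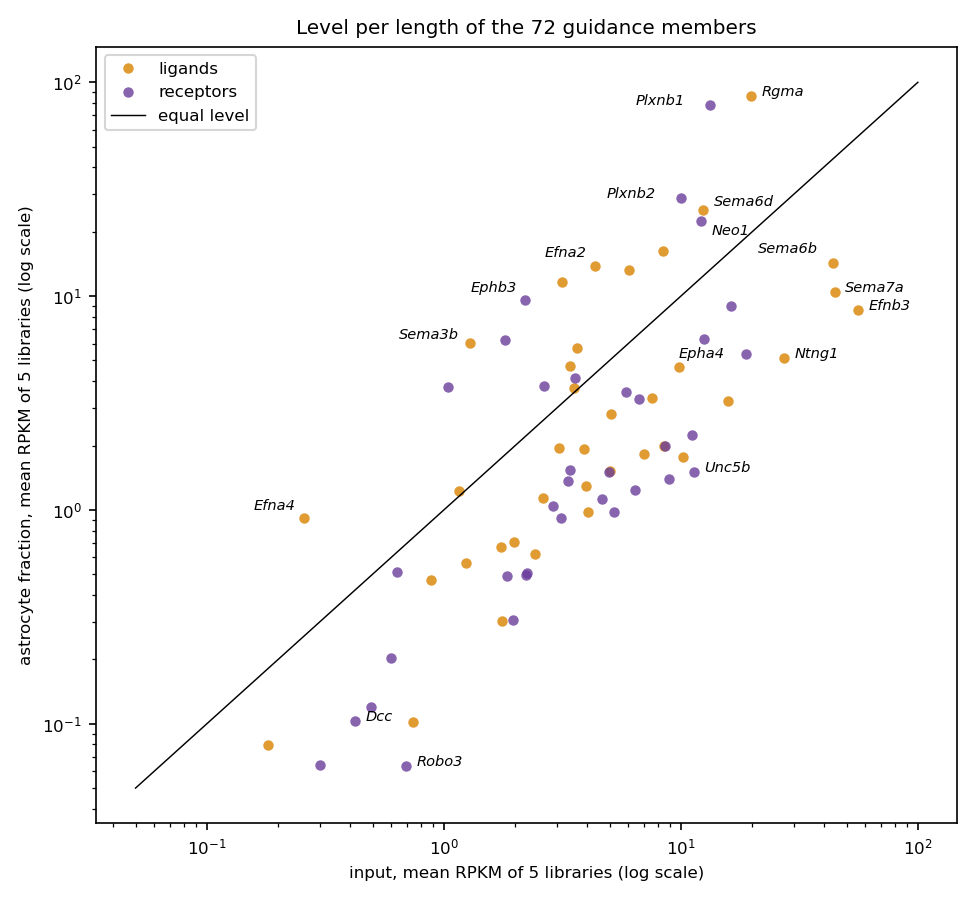
Mean RPKM of the 72 guidance genes in the astrocyte fraction (vertical) against the input (horizontal), both on log scales, means of 5 libraries; the line marks equal levels. Rgma and Plxnb1 stand at the top at 86.3 and 77.96 RPKM in the fraction, while Efnb3, Sema7a and Sema6b lie farthest right and below the line.

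Among the 20 semaphorins 3 were higher, all of them membrane-bound, 13 were lower and 4 had no call. Their median log2 fold change was -1.18, and of all genes tested 33.1% were called higher and 37.5% lower. Sema4b (ENSMUSG00000030539, mm10 chromosome 7, 80186841 to 80226527) had 68.05, 74.5, 53.8, 68.2 and 63.95 CPM in the fraction libraries 88, 92, 976, 981 and 982, against 19.6, 20.04, 16.1, 19.2 and 14.3 CPM in the inputs. Sema4b was 3.66-fold higher in the fraction (log2 fold change 1.87 ± 0.12, adjusted p = 1.39e-08). Sema6d, a class 6 ligand of plexin-A1, had 257, 294, 194, 313 and 279 CPM in the fraction libraries, against 122, 154, 109.6, 145 and 125 CPM in the inputs (log2 fold change 1.03 ± 0.15, adjusted p = 1.16e-05). Sema4a, a ligand of plexin-B and plexin-D receptors, had 89.5, 86.8, 60.5, 114 and 87.8 CPM in the fraction libraries, against 53.3, 41.5, 39.8, 51.8 and 40.7 CPM in the inputs (log2 fold change 0.95 ± 0.17, adjusted p = 8.85e-05). For all 3 genes every fraction library lay above every input, and in each the lowest fraction library was 976.

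The other class 4 semaphorins were lower on the log2 scale, with Sema4c at -0.64, Sema4g at -1.07, Sema4d at -1.17 and Sema4f at -2.101. Sema4d, the ligand of plexin-B1 that oligodendrocytes are known to make, had 27.9, 20.8, 23.2, 29.7 and 26.01 CPM in the fraction libraries, against 58.8, 55.1, 55.1, 57.96 and 62.9 CPM in the inputs, with no overlap (adjusted p = 2.03e-07). The most abundant semaphorins of the input were both lower in the fraction. Sema7a, which is anchored to the membrane by a lipid and signals through plexin-C1 and integrins, had 26.9, 40.3, 31.7, 23.1 and 49.8 CPM in the fraction libraries, against 117, 184, 150.4, 102 and 182 CPM in the inputs (log2 fold change -2.11 ± 0.26, adjusted p = 9.65e-06). Sema6b, a class 6 transmembrane ligand, had 54.8, 57.3, 45.8, 56.4 and 67.95 CPM in the fraction libraries, against 166, 184, 160.1, 178 and 181 CPM in the inputs (log2 fold change -1.62 ± 0.10, adjusted p = 9.37e-09). The groups did not overlap in either gene. Of the rest of classes 5 and 6, Sema6c (-1.66), Sema6a (-1.95), Sema5b (-1.202) and Sema5a (-2.07) were all lower with adjusted p of 1.46e-05 or less.

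The secreted class 3 semaphorins had no gene called higher, 3 lower and 4 not called. The share called lower, 42.9%, was near the 37.5% of all genes tested, of which 33.1% were called higher. Sema3e, which acts on plexin-D1, had 2.27, 2.93, 3.17, 3.11 and 2.53 CPM in the fraction libraries, against 12.8, 18.7, 18.6, 13.9 and 17.4 CPM in the inputs (log2 fold change -2.505 ± 0.14, adjusted p = 2.06e-08). Sema3d had 1.39, 0.244, 1.24, 0.967 and 0.528 CPM in the fraction libraries, where the value of library 92 is under 1 count, against 8.81, 5.48, 4.97, 7.07 and 5.43 CPM in the inputs. Sema3c was lower as well (log2 fold change -1.29 ± 0.36, adjusted p = 4.01e-04), and none of these 3 genes overlapped between fraction and input. Sema3g was at 5.59 ± 1.57 CPM in the fraction and 5.25 ± 0.533 CPM in the input, was above the input in 3 of 5 numbers and was not called (adjusted p = 0.636). Sema3b, Sema3f and Sema3a, the other genes without a call, varied between libraries and are described with the variable genes after the netrin receptors.

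Of 9 plexins, Plxnb1, Plxnb2 and Plxnd1 were higher and 6 lower, and the median log2 fold change was -0.98. The plexin share called higher, 33.3%, was near the 33.1% of all genes tested. The share called lower was 66.7% for plexins and 37.5% for all genes tested. Plxnb2, the receptor of class 4 semaphorins such as Sema4c, had 195, 154, 327, 202 and 228 CPM in the fraction libraries 88, 92, 976, 981 and 982, against 74.5, 71.5, 99.3, 65.02 and 77.9 CPM in the inputs (log2 fold change 1.51 ± 0.20, adjusted p = 1.17e-05). Its highest values were in the fraction and input libraries of number 976, and without the numbers 976 and 982 the log2 fold change was 1.499 (adjusted p = 3.44e-06). Plxnd1, the receptor of Sema3e, had 34.2, 26.2, 19.3, 36.7 and 22.9 CPM in the fraction libraries, against 22.5, 20.1, 15.6, 19.6 and 18.7 CPM in the inputs, values that overlapped (log2 fold change 0.53 ± 0.19, adjusted p = 0.0141). Its call was lost under scaling to total counts (log2 fold change 0.24, adjusted p = 0.211). The third plexin-B gene, Plxnb3, was 5.07-fold lower, at 7.14, 6.58, 6.32, 10.04 and 10.03 CPM in the fraction libraries, against 46.4, 41.9, 41.6, 36.5 and 41.3 CPM in the inputs. All 4 plexin-A genes, the signalling partners of neuropilins, were lower without overlap, Plxna4 at -0.72, Plxna1 at -0.98, Plxna3 at -1.13 and Plxna2 at -1.78 on the log2 scale, as was Plxnc1, the receptor of Sema7a (-1.01). Among all genes tested, 31.1% were lower without overlap. Of the exon bases of Plxna1, 10.7% are shared with a gene model on the opposite strand, and no source used here gives the strand setting of the counting.

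The neuropilins, co-receptors of class 3 semaphorins, moved apart. Nrp1, which pairs with plexin-A receptors to bind Sema3a, had 51.4, 76.5, 48.2, 68 and 60.99 CPM in the fraction libraries, against 17.1, 15.1, 18.9, 17.5 and 19.7 CPM in the inputs. Nrp1 was 3.43-fold higher in the fraction (log2 fold change 1.78 ± 0.14, adjusted p = 6.23e-08). Nrp2, which binds Sema3f, had 15.1, 16.1, 19.1, 8.896 and 21.3 CPM in the fraction libraries, against 41.3, 30.3, 47.4, 31.9 and 47.8 CPM in the inputs. Nrp2 was 2.46-fold lower in the fraction (log2 fold change -1.298 ± 0.26, adjusted p = 1.62e-04). Neither gene overlapped between fraction and input, and Nrp1 made up 81.8 ± 5.99% of their summed RPKM in the fraction and 35.4 ± 3.25% in the input.

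**Figure D3:**
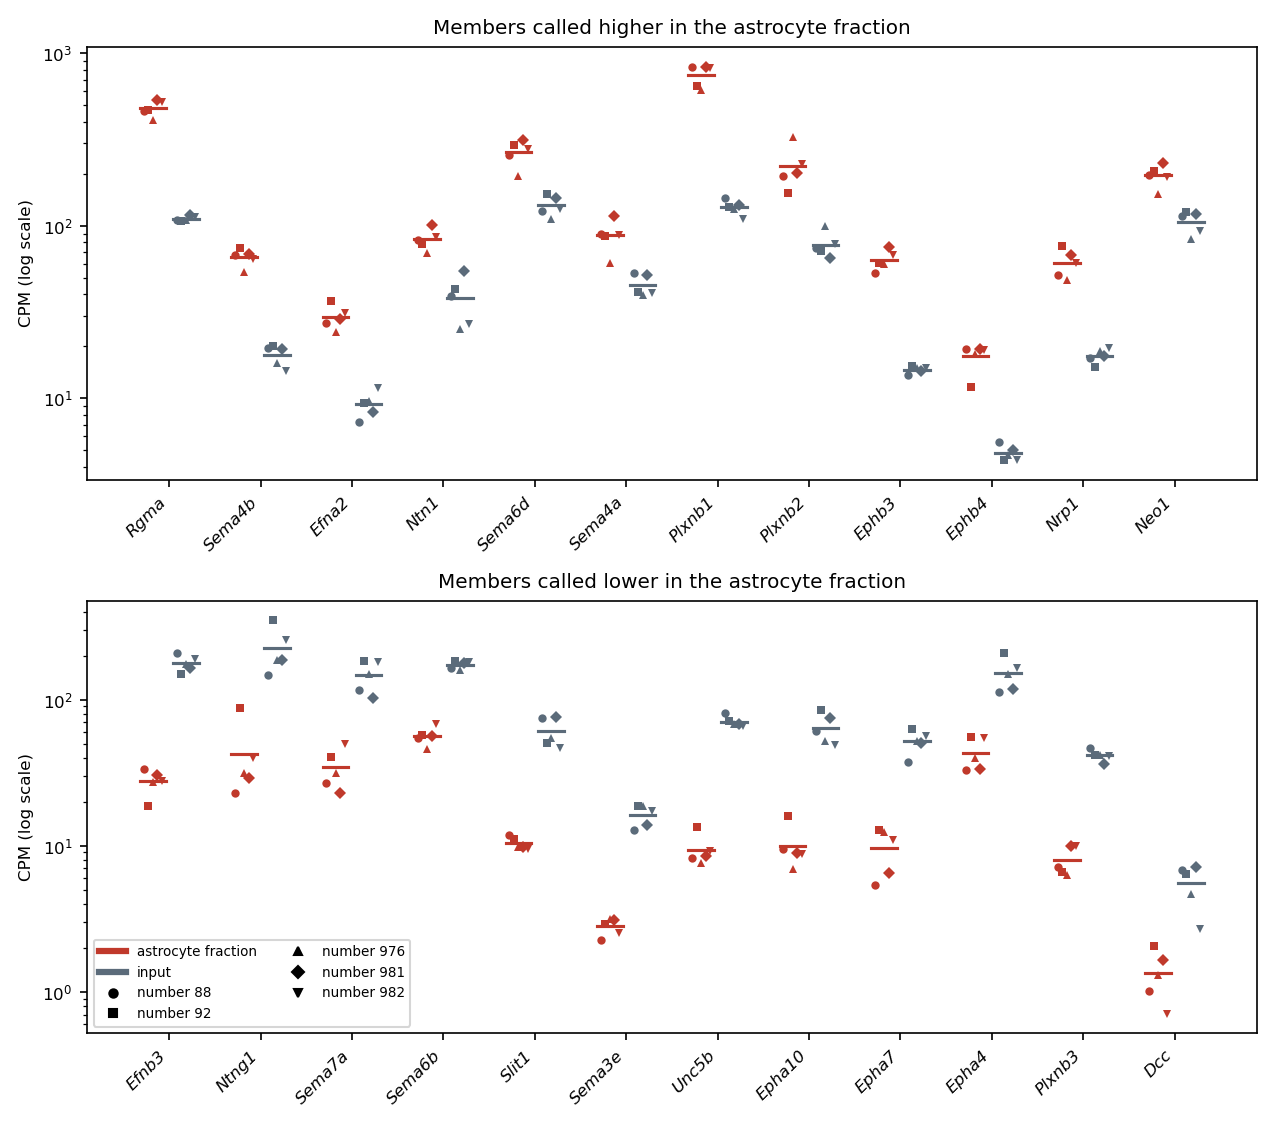
CPM on a log scale of 12 genes called higher (top) and 12 called lower (bottom) in every library; symbols mark the number of the library, bars the mean of 5, with the astrocyte fraction (red) left of the input (grey). The red and grey points of each gene shown do not overlap, and Plxnb1 reaches 835 CPM in the fraction.

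In the ephrin system 3 of 8 ephrins and 2 of 14 Eph receptors were higher, and 5 ephrins and 11 receptors were lower. The share called higher was 37.5% for ephrins, 14.3% for Eph receptors and 33.1% for all genes tested. The share called lower was 62.5%, 78.6% and 37.5% in the same order. The higher receptors belonged to the B class. Ephb3 (ENSMUSG00000005958, mm10 chromosome 16, 21204755 to 21223305) had 53.2, 61.2, 60.3, 75.4 and 67.5 CPM in the fraction libraries 88, 92, 976, 981 and 982, against 13.7, 15.4, 14.98, 14.3 and 14.9 CPM in the inputs (log2 fold change 2.11 ± 0.09, adjusted p = 9.96e-10). Ephb4, best known as the receptor of ephrin-B2 on veins, had 19.3, 11.6, 18.1, 19.4 and 18.9 CPM in the fraction libraries, against 5.56, 4.4, 4.68, 5.04 and 4.37 CPM in the inputs (log2 fold change 1.86 ± 0.15, adjusted p = 1.47e-07). In both genes every fraction library was above every input, and for Ephb4 fraction library 92 was the lowest of its group. The 11 endothelial markers had 0 higher, 5 lower and 6 not called, and summed to 88.4 to 150.1 CPM in the fraction and 149.0 to 182.9 CPM in the input. Ephb6, whose product lacks kinase activity, was lower (log2 fold change -0.85 ± 0.10, adjusted p = 3.29e-06), and Ephb1 (-2.05) and Ephb2 (-2.200) were lower by more.

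Of the 9 EphA receptors, 8 were lower, 0 were higher and Epha1 was not called. Among all genes tested, 37.5% were called lower and 33.1% higher. Epha4, which binds ephrins of both classes and is the most abundant EphA receptor per length in the fraction and the input, had 32.98, 55.1, 39.7, 33.4 and 54.8 CPM in the fraction libraries, against 112, 209, 151, 118 and 165 CPM in the inputs (log2 fold change -1.82 ± 0.23, adjusted p = 8.59e-06). Epha10, which also lacks kinase activity, was the lowest in fold change, with 9.48, 15.99, 6.91, 8.91 and 8.81 CPM in the fraction libraries, against 60.8, 85.04, 52.3, 74.8 and 49.2 CPM in the inputs (log2 fold change -2.76 ± 0.25, adjusted p = 1.65e-07). Epha7 (-2.46), Epha8 (-2.200), Epha3 (-2.03), Epha6 (-1.89) and Epha5 (-1.74) did not overlap between fraction and input either. Epha3 was at 1.05 ± 0.4495 CPM in the fraction and 4.296 ± 1.396 CPM in the input, and without the numbers 976 and 982 its log2 fold change was -1.24 (adjusted p = 0.0106). Epha2 was at 0.298 ± 0.327 CPM in the fraction, with 0 counts in libraries 92 and 976, and 1.403 ± 0.815 CPM in the input, which overlapped (log2 fold change -1.78 ± 0.80, adjusted p = 0.0209). Its call was lost without the input library 88 (adjusted p = 0.0514) or the fraction library 88 (adjusted p = 0.0524), and with limma on the deposited log2 values the log2 fold change was -2.76 (adjusted p = 0.0148).

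Ephrins of both classes were found on either side. Efna2 (ENSMUSG00000003070, mm10 chromosome 10, 80179482 to 80190010) had 27.1, 36.5, 24.1, 28.7 and 31.3 CPM in the fraction libraries, against 7.28, 9.38, 9.63, 8.28 and 11.5 CPM in the inputs. Efna2 was 3.16-fold higher in the fraction (log2 fold change 1.66 ± 0.15, adjusted p = 3.21e-07). Efna4 had 0.979, 0.8803, 2.403, 1.58 and 1.46 CPM in the fraction libraries, where the value of library 92 is 3 counts, against 0.532, 0.258, 0.295, 0.535 and 0.425 CPM in the inputs, all higher in the fraction but low (log2 fold change 1.72 ± 0.31, adjusted p = 2.70e-04). Efnb1, with 16.7, 10.2, 16.1, 19.1 and 18.8 CPM in the fraction libraries and 13.5, 9.53, 10.9, 12.8 and 11.8 CPM in the inputs, overlapped (log2 fold change 0.49 ± 0.18, adjusted p = 0.0135), and its call was lost with scaling to total counts (adjusted p = 0.285), with limma on the deposited log2 values (adjusted p = 0.0597) and without the numbers 976 and 982 (adjusted p = 0.0662). Efnb3 (ENSMUSG00000003934, mm10 chromosome 11, 69554092 to 69560205), a repellent ligand that EphA4 also binds, was the highest ligand of the input and had 33.6, 18.7, 27.4, 30.3 and 27.8 CPM in the fraction libraries, against 207, 150.3, 176, 166 and 191 CPM in the inputs. Efnb3 was 6.33-fold lower in the fraction (log2 fold change -2.66 ± 0.16, adjusted p = 2.05e-09). Efna3 (-2.31), Efna5 (-1.57), Efnb2 (-1.46) and Efna1 (-0.997) were lower as well, without overlap. Efna3 and Efna4 share 14.1% and 10.5% of their exon bases with gene models on the opposite strand.

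**Figure D4:**
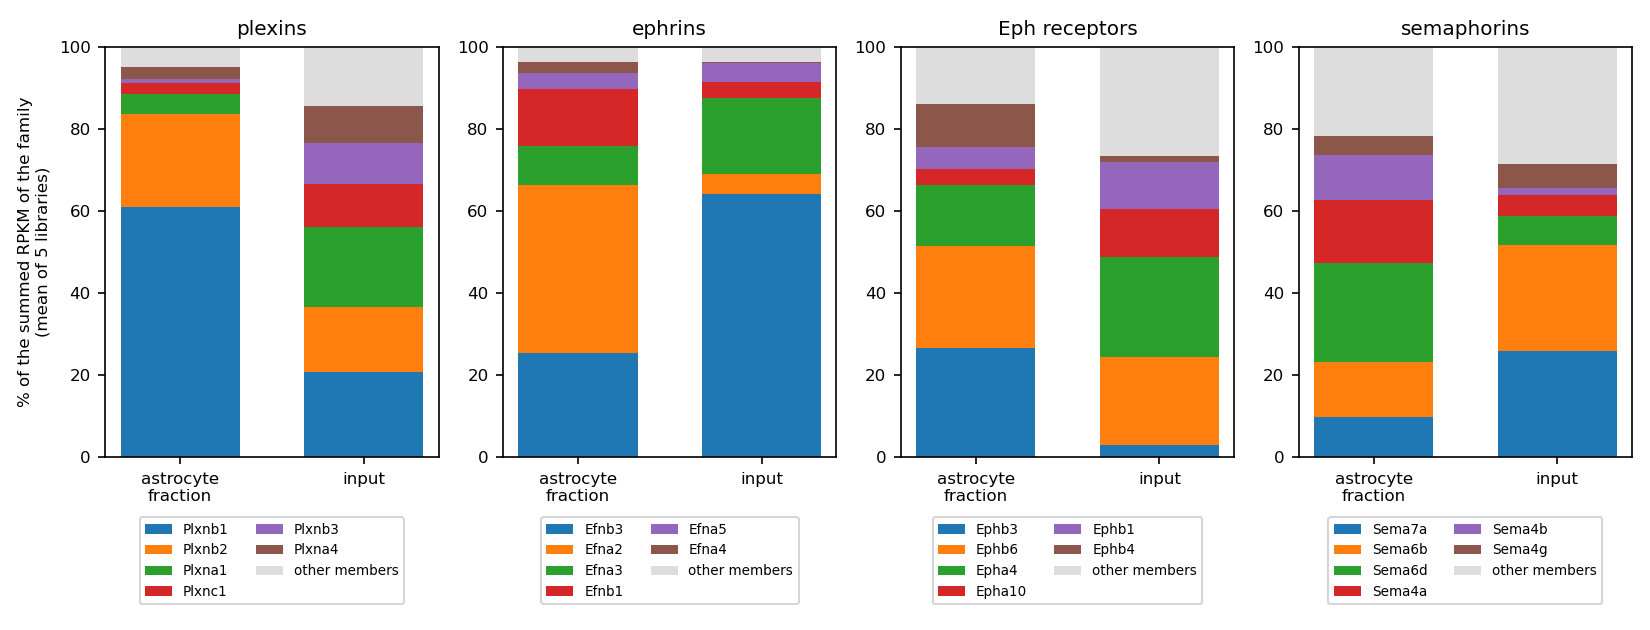
Share of each gene in the summed RPKM of its family, in percent, as the mean of 5 libraries, with the astrocyte fraction left of the input; the 6 genes with the largest share in either group are named. Plxnb1 takes 61.1% of plexin RPKM in the fraction and 20.8% in the input, and Efnb3 takes 25.5% of ephrin RPKM in the fraction and 64.1% in the input.

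Shares within families are given for plexins, ephrins, Eph receptors and semaphorins. Plxnb1 and Plxnb2 together with the rest of the plexins summed to 127 ± 11.8 RPKM in the fraction and 63.97 ± 4.16 RPKM in the input, and Plxnb1 took 61.1 ± 5.38% of it in the fraction and 20.8 ± 1.13% in the input (SD, n = 5 each). Efna2 was 40.9 ± 6.89% of ephrin RPKM in the fraction and 4.99 ± 0.848% in the input, while Efnb3 was 25.5 ± 4.698% in the fraction and 64.1 ± 3.51% in the input. Among Eph receptors Ephb3 was 26.6 ± 2.97% in the fraction and 2.91 ± 0.157% in the input, while Epha4 was 14.8 ± 3.12% in the fraction and 24.4 ± 3.98% in the input. Sema6d was 24 ± 4.16% of semaphorin RPKM in the fraction and 7.27 ± 0.91% in the input. The semaphorin sum was 106 ± 5.16 RPKM in the fraction and 171 ± 12.7 RPKM in the input.

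All 3 Slits were called lower, and no Robo was called higher, where 37.5% of all genes tested were called lower and 33.1% higher. Slit1 (ENSMUSG00000025020, mm10 chromosome 19, 41600257 to 41743665) had 11.9, 11.1, 9.75, 9.88 and 9.57 CPM in the fraction libraries 88, 92, 976, 981 and 982, against 74.7, 50.8, 54.7, 76.7 and 46.6 CPM in the inputs. Slit1 was 5.803-fold lower in the fraction (log2 fold change -2.54 ± 0.16, adjusted p = 1.03e-08). Slit3 had 1.93, 7.5, 2.73, 3.33 and 3.395 CPM in the fraction libraries, against 12.1, 19.4, 14.3, 13.2 and 14.9 CPM in the inputs, without overlap and with library 92 highest in both groups (log2 fold change -2.09 ± 0.34, adjusted p = 2.53e-05). Slit2 had 10.2, 5.87, 25.1, 6.104 and 12.7 CPM in the fraction libraries, against 26.1, 19.2, 22.9, 24.03 and 19.4 CPM in the inputs, and fraction library 976 lay within the input range (log2 fold change -0.85 ± 0.39, adjusted p = 0.0434). The Slit2 call was lost when any library but fraction 976 was left out (adjusted p from 0.0552 to 0.0943), and without the numbers 976 and 982 the log2 fold change was -1.47 (adjusted p = 4.25e-04). Of the Slit receptors, Robo1 (ENSMUSG00000022883, mm10 chromosome 16, 72663149 to 73046095) was the most abundant per length in the fraction and had 65.8, 77.8, 55.3, 71.2 and 71.5 CPM in the fraction libraries, against 54.3, 72.8, 54.3, 59.9 and 55.1 CPM in the inputs. It was above the input in 5 of 5 numbers but overlapped and was not called (log2 fold change 0.198 ± 0.12, adjusted p = 0.117). With the number of the library as a replicate block it was called higher (log2 fold change 0.21, adjusted p = 0.0257), as it was without input 92 (0.28) or fraction 976 (0.34), and with scaling to total counts its value was -0.09. Robo2, the other main neuronal receptor of Slits, had 19.2, 12.99, 15.1, 21.6 and 20.1 CPM in the fraction libraries, against 50.3, 52.2, 38.2, 62.4 and 40.8 CPM in the inputs, without overlap (log2 fold change -1.43 ± 0.19, adjusted p = 4.00e-06). Robo4, known from endothelium, had 2.47, 3.398, 1.85, 3.17 and 2.76 CPM in the fraction libraries and 3.15, 5.05, 2.79, 3.08 and 2.69 CPM in the inputs and was not called (adjusted p = 0.265), but was called lower with scaling to total counts (log2 fold change -0.59, adjusted p = 0.0365).

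Of 6 netrin, netrin-G and repulsive guidance molecule genes, Ntn1, Ntng2 and Rgma were higher. Of the 6 genes of Dcc, neogenin and the Unc5 receptors, 5 were lower. Among all genes tested, 33.1% were called higher and 37.5% lower. Ntn1 (ENSMUSG00000020902, mm10 chromosome 11, 68209364 to 68400823), the secreted netrin that Dcc and Unc5 receptors bind, had 83.1, 78.4, 69.5, 101 and 85.6 CPM in the fraction libraries 88, 92, 976, 981 and 982, against 39.4, 42.8, 25.2, 54.8 and 26.97 CPM in the inputs. Ntn1 was 2.21-fold higher in the fraction without overlap (log2 fold change 1.14 ± 0.23, adjusted p = 2.40e-04). Ntn4, a netrin of basement membranes, had 14.7, 14.7, 18.6, 8.32 and 13.3 CPM in the fraction libraries and 12.9, 12.6, 11.9, 17.97 and 10.7 CPM in the inputs and was not called (log2 fold change 0.07, adjusted p = 0.757). The netrin-Gs, which are anchored by lipid and bind partners of the Lrrc4 family and not Dcc, went opposite ways. Ntng1 (ENSMUSG00000059857, mm10 chromosome 3, 109780040 to 110144011) had 22.8, 87.7, 31.5, 29.1 and 40.1 CPM in the fraction libraries, against 147, 350.0, 186, 187 and 257 CPM in the inputs, with library 92 highest in both groups and no overlap (log2 fold change -2.49 ± 0.40, adjusted p = 2.60e-04). Ntng2 had 29.8, 12.96, 18.6, 29 and 23.97 CPM in the fraction libraries and 15.5, 9.79, 18.3, 11.4 and 17.8 CPM in the inputs, which overlapped (log2 fold change 0.67 ± 0.29, adjusted p = 0.0202). The Ntng2 call was lost with scaling to total counts (adjusted p = 0.167), with limma on the deposited log2 values (adjusted p = 0.0638) and without fraction 88 (adjusted p = 0.0513), and 14% of its exon bases are shared with another gene model on its strand.

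The repulsive guidance molecules and their receptor were partly higher. Rgma (ENSMUSG00000070509, mm10 chromosome 7, 73375509 to 73419899), a lipid-anchored repellent that acts through neogenin, had 460.1, 466, 409, 534 and 522 CPM in the fraction libraries, against 108, 106, 108, 116 and 112 CPM in the inputs. Rgma was 4.35-fold higher in the fraction (log2 fold change 2.12 ± 0.07, adjusted p = 2.00e-10). Its inputs lay within a narrow range and far below every fraction library. Rgmb, its relative that also binds bone morphogenetic proteins, was 1.79-fold lower, with 25.6, 17.4, 22.2, 22.4 and 19.8 CPM in the fraction libraries and 44.2, 33.1, 35.2, 45.9 and 36.5 CPM in the inputs. Neo1 (ENSMUSG00000032340, mm10 chromosome 9, 58874687 to 59036441), which encodes neogenin, had 197, 207, 154, 231 and 192 CPM in the fraction libraries, against 114, 121, 83.6, 116 and 93.3 CPM in the inputs, higher without overlap (log2 fold change 0.89 ± 0.14, adjusted p = 2.81e-05). Dcc, the attractive netrin receptor and the closest relative of neogenin, had 1.02, 2.05, 1.31, 1.66 and 0.709 CPM in the fraction libraries, against 6.85, 6.39, 4.65, 7.15 and 2.68 CPM in the inputs (log2 fold change -2.05 ± 0.36, adjusted p = 8.24e-05). Neo1 made up 99.5 ± 0.164% of their summed RPKM in the fraction and 96.7 ± 0.8297% in the input. All 4 Unc5 receptors, which turn the response to netrin into repulsion, were lower without overlap. Of all genes tested, 31.1% were lower without overlap. Unc5c had 4.04, 6.12, 5.55, 6.796 and 6.69 CPM in the fraction libraries, against 30.5, 46.9, 35.6, 35.6 and 39.3 CPM in the inputs (log2 fold change -2.68). Unc5a had 11.4, 4.402, 9.44, 9.798 and 11.8 CPM in the fraction libraries, against 55.2, 40.5, 49.8, 41.5 and 44.1 CPM in the inputs (log2 fold change -2.24). Unc5d had 4.86, 7.92, 3.98, 3.63 and 3.11 CPM in the fraction libraries, against 27.5, 16.99, 20.9, 19.4 and 18.5 CPM in the inputs (log2 fold change -2.22). None of these libraries crossed, and the Unc5 summed level was 4.57 ± 0.31 RPKM in the fraction and 26.6 ± 2.46 RPKM in the input. Within the 72 guidance genes, 12 had a log2 fold change below the pan-neuronal median of -2.27, 6 ligands and 6 receptors, and 0 had one above the astrocyte marker median of 3.05. The shares of all genes tested beyond these medians were not counted, so these counts are a description only.

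Several genes varied between libraries of 1 group. Most of them were highest in fraction libraries 976 and 982, which held the most choroid plexus transcripts. Among the inputs, however, Sema3f was highest in 981, Slit2 in 88 and Epha1 in 92. Ttr, the transthyretin gene of the choroid plexus, was at 2.79, 2.86, 11040.0, 11.6 and 2312 CPM in the fraction libraries 88, 92, 976, 981 and 982, against 1.39, 0.334, 2965, 2.697 and 604 CPM in the inputs. Sema3b (ENSMUSG00000057969, mm10 chromosome 9, 107597674 to 107609229), a secreted class 3 semaphorin, had 14.5, 3.52, 105, 3.63 and 16.7 CPM in the fraction libraries, against 4.67, 1.67, 18.1, 2.2 and 4.17 CPM in the inputs. It was above the input in 5 of 5 numbers and highest in number 976 in both groups, and it was not called (log2 fold change 2.25 ± 1.07, adjusted p = 0.0895). With the number as a replicate block it was called higher (log2 fold change 1.74, adjusted p = 7.53e-05), also with DESeq2 (adjusted p = 0.0411) and without input 976 (3.18, adjusted p = 0.0333). Leaving out fraction 976 gave 0.78 (adjusted p = 0.402). Leaving out both libraries of 976 and of 982 gave 1.51 (adjusted p = 0.0583). Sema3f, a repellent that acts through Nrp2, had 4.22, 4.99, 26.4, 5.46 and 8.96 CPM in the fraction libraries, against 20.8, 16.2, 22.4, 23.5 and 18.8 CPM in the inputs, below the input in every number but 976 (log2 fold change -0.97 ± 0.48, adjusted p = 0.0868). It was called lower with scaling to total counts (adjusted p = 0.0419), with limma on the deposited log2 values (adjusted p = 0.0159), with the block (log2 fold change -1.32, adjusted p = 0.0288), without fraction 976 (-1.66, adjusted p = 1.73e-05) and without the numbers 976 and 982 (-1.92, adjusted p = 2.93e-05). The part of choroid plexus RNA in the values of these genes, and in those of Slit2, Plxnb2, Epha1 and Robo3, was not tested.

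Epha1 had 0.163, 0, 2.78, 0.0214 and 1.04 CPM in the fraction libraries, with 0 counts in library 92 and 0.5 expected counts in library 981, against 0.792, 3.895, 3.27, 1.497 and 2.31 CPM in the inputs, below the input in every number (log2 fold change -1.29 ± 1.04, adjusted p = 0.166). It was called lower with limma on the deposited log2 values (-3.04, adjusted p = 0.0357), with the block (log2 fold change -1.65, adjusted p = 0.0172), without fraction 976 (-2.34, adjusted p = 0.00975) and without the numbers 976 and 982 (-3.51, adjusted p = 0.002202). Robo3, a divergent receptor that controls the crossing of the midline by commissural axons, was highest in the inputs of 976 and 982, with 0.0816, 0.147, 0.925, 0.128 and 0.886 CPM in the fraction libraries, where 3 of the values are 3 counts or fewer, against 1.07, 0.837, 10.98, 0.846 and 10.04 CPM in the inputs, with overlap. Inputs 976 and 982 stood apart from the other inputs, and the call of a lower level (log2 fold change -3.13 ± 1.11, adjusted p = 0.0167) held without the numbers 976 and 982, at a log2 fold change of -2.399 (adjusted p = 9.67e-04). Sema3a, the repellent ligand of Nrp1, was instead highest in number 88, with 3.22, 0.587, 0.0798, 0.934 and 0.678 CPM in the fraction libraries, against 6.09, 1.28, 1.01, 3.28 and 0.8804 CPM in the inputs, below the input in every number. Its values in fraction libraries 92 and 976 are 2 counts each. Sema3a was not called (log2 fold change -1.06 ± 0.87, adjusted p = 0.231) and was called lower with the block (log2 fold change -1.28, adjusted p = 0.00769) and without fraction 88 (-1.998, adjusted p = 0.0276). Without input 88 the value was -0.44 (adjusted p = 0.596).

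**Figure D5:**
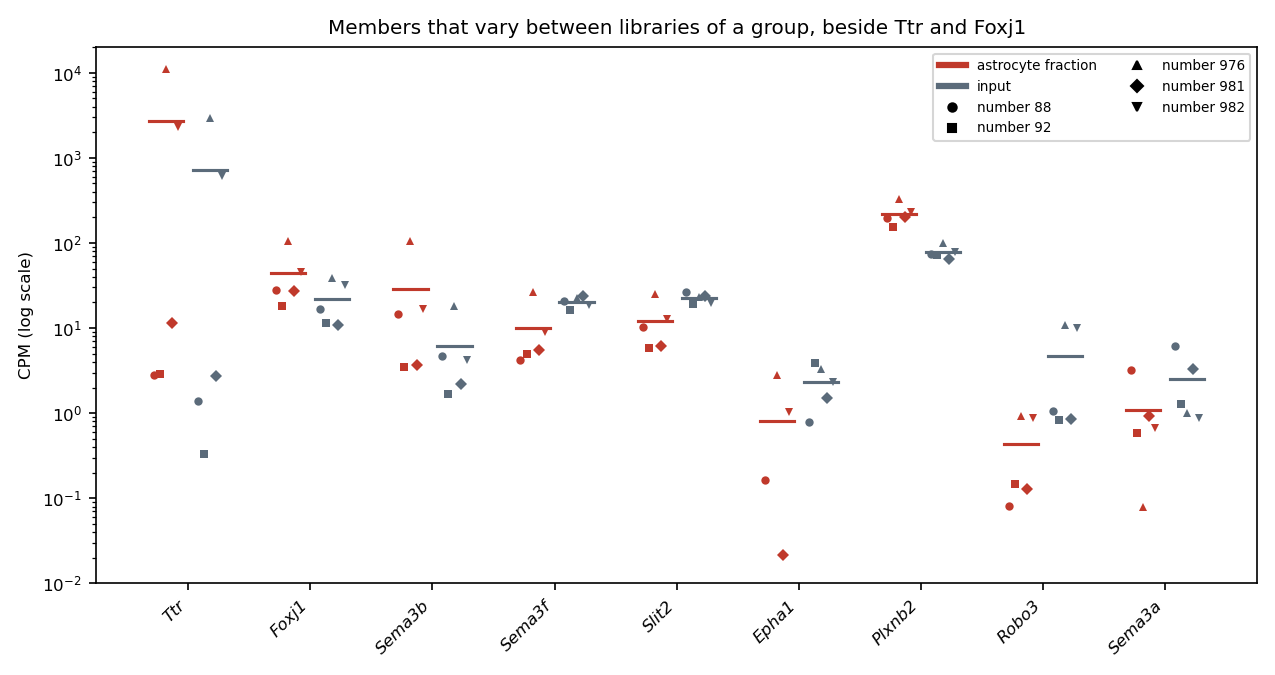
CPM on a log scale in every library of 7 guidance genes that vary between libraries, beside the choroid plexus gene Ttr and the ependymal gene Foxj1; symbols mark the number of the library, bars the mean of 5, with the astrocyte fraction (red) left of the input (grey). The value of 0 CPM of Epha1 in fraction library 92 cannot be drawn on the log scale; Sema3b reaches 105 CPM in fraction library 976.

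Genes that act beside or downstream of these receptors were counted in 2 further lists. Of 16 collapsin response mediators, MICAL enzymes and partners, which carry semaphorin signals to the cytoskeleton, 3 were higher and 11 lower, and the median log2 fold change was -1.13. The collapsin response mediators Dpysl5 (-2.56), Crmp1 (-2.48), Dpysl3 (-2.46), Dpysl4 (-2.39) and Dpysl2 (-0.94) were lower, as were Mical3 (-2.26) and Mical2 (-0.61). Mical1 (2.51), Farp1 (2.02) and the kinase gene Fyn (1.29) were higher, and Farp2 (0.03) was not called. Of 30 other ligands and co-receptors, 9 were higher and 15 lower, and the median was -0.91. Beside both lists, 33.1% of all genes tested were called higher and 37.5% lower. The syndecan Sdc3 (2.095) and Nrcam (1.46), a co-receptor of class 3 semaphorins, were higher. In the Flrt family, which binds Unc5 receptors, Flrt1 (1.03) and Flrt2 (0.80) were higher and Flrt3 (-1.98) lower. Mag (-3.99), Cntn2 (-3.22), L1cam (-2.92) and Dscam (-2.33) were lower as well. The netrin-G partners Lrrc4c (0.05) and Lrrc4 (0.002) were not called.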

How the data were processed

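Libraries of polyA RNA from ventral midbrain were made with an NEB Ultra II kit, per the labels' protocols. The authors deposited 1 table of 18464 genes. Its raw columns hold expected counts per gene, which the authors left unscaled per the file headers. Its normalized columns hold log2 values that the authors scaled between libraries, and from the values they are centred per gene near the input. CASAVA 1.8, DESeq and the build mm10 are named in the submitters' processing notes. No source used here gives the aligner, the counter or the strand setting.

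Expected counts were rounded and analysed with edgeR 4.0.16 (R 4.3.3) under TMM scaling. The filterByExpr filter, set at 10 counts, kept 17672 genes. The robust quasi-likelihood test compared the 5 fraction with the 5 input libraries, with a prior count of 2 and Benjamini-Hochberg adjustment over all genes tested. CPM use TMM-scaled library sizes and are given as mean ± SD over 5 libraries. RPKM divide them by the union exon length of GENCODE M21, where 66 of the 73 genes have identical coordinates. SEs are those of the difference between group means of log2 CPM. Floors of 3 counts cover counting error only. The test was tried on simulated data. Alternatives were DESeq2 1.42.0, limma 3.58.1 on the deposited log2 values, other scalings and filters, a block for the library number, and leaving out libraries.

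In each family the largest gain and loss among called genes and the highest level per length in the fraction are given in every library, as is every gene of families of up to 4. A further list of genes is not reported here. Members and lists were chosen with earlier results of these data known.

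The shared numbers were taken to pair the libraries in comparisons by number and in the alternative with a replicate block. The main test compared the groups without pairing. After removal of group means, log2 CPM of the 2 libraries of a number correlated at 0.386, 0.198, 0.493, 0.322 and 0.189 for 88, 92, 976, 981 and 982, all above 0.1. For 982 the best-correlated library was not its own partner. Libraries of a group differed beyond sampling noise, with a chi-square of at least 11.2 per degree of freedom.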

Additional observations from a re-analysis of the deposited data

Results flagged for a closer look

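Among the 146 groups of 5 libraries examined (73 genes in fraction and input), 8 had a highest or lowest library farther from the rest than Dixon's limit at 95% on the scale of log2 CPM, where chance gives about 1 in 20. Of these, 4 were low values in the astrocyte fraction library 92: Ephb4 at 11.6 CPM (the others 18.1 to 19.4 CPM), Efnb1 at 10.2 CPM (the others 16.1 to 19.1 CPM), Sema6c at 4.62 CPM (the others 8.81 to 11.1 CPM) and Unc5a at 4.402 CPM (the others 9.44 to 11.8 CPM). Sema5b was low in fraction library 976, at 5.05 CPM against 8.43 to 9.29 CPM. Efnb2 was high in fraction library 88, at 7.73 CPM against 3.91 to 4.36 CPM. Robo4 was high in input 92, at 5.05 CPM against 2.69 to 3.15 CPM, as was Epha6, at 13.3 CPM against 8.48 to 9.31 CPM. The total of expected counts of fraction library 92, 3845554, lay below those of the other fraction libraries, 24479136 to 26924406, so its values carry the largest counting error.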

How the results depend on the processing

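Of the 65 genes called, 60 kept call and direction under all 18 alternatives that tested them; the exceptions are Ntng2, Plxnd1, Efnb1, Slit2 and Epha2. The counts of ligands and receptors called higher and lower stayed within 1.5 times of the reported ones under all 18. Depth limits genes under 1 CPM in fraction library 92. With scaling to total counts, which moved the median of all genes to -0.34, the median log2 fold change was -1.54 over guidance genes, -1.36 over ligands, -2.03 over receptors, -1.41 over collapsin mediators, 2.76 over astrocyte and -2.56 over pan-neuronal markers, and 9 endothelial markers were lower. This scaling also turned Robo1 (-0.0874), Sema3g (-0.18) and Ntn4 (-0.203), none of them called. With the deposited log2 values the medians were -1.51 over guidance genes and -1.26 over ligands. Under a filter at a 5 CPM mean, which tests fewer genes, they were -1.26 over ligands, -1.52 over receptors and -0.82 over mural and fibroblast markers, of which 3 were lower, and Ntn4 was at -0.0126. Without the numbers 976 and 982, Ntn4 was at -0.13, the medians were -0.46 over other ligands and co-receptors, 3.22 over astrocyte and -1.14 over mural and fibroblast markers, and 2 endothelial and 5 mural and fibroblast markers were lower. Of the ependymal and choroid plexus markers, 1 was higher and 0 lower, but 2 were higher with DESeq2 or the deposited log2 values, 4 higher and 2 lower with the replicate block, and 4 higher and 1 lower without the numbers 976 and 982. Leaving out 1 library at a time gave 2 to 5 lower endothelial markers and 1 to 2 higher ependymal and choroid plexus markers, with medians of -0.19 to 1.85. The replicate block changed the calls of Sema3b, Robo1, Sema3f, Sema3a and Epha1 and of no other guidance gene; it gave 18 guidance genes higher and 51 lower. The cause of these changes was not tested.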

Other observations

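Unc50, which encodes a Golgi membrane protein and is not a guidance receptor, had 54.6, 49.3, 53.9, 50.9 and 48.2 CPM in the astrocyte fraction libraries 88, 92, 976, 981 and 982, against 30.2, 32.5, 32.2, 29.04 and 34.5 CPM in the inputs (log2 fold change 0.697 ± 0.06, adjusted p = 2.66e-06, edgeR quasi-likelihood test). Of 9 markers of oligodendrocyte precursors, 1 was higher and 8 were lower in the fraction, with a median log2 fold change of -3.17. Of 11 mural and fibroblast markers, 2 were higher and 8 lower, and the median was -1.57.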
